A study of Rattus norvegicus with 4 samples.

Results

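The mitochondrial respiratory chain genes encode the enzyme complexes that pass electrons from NADH and succinate to oxygen, and the ATP synthase driven by the proton gradient this creates. Members were all genes on the array whose symbol starts with Ndufa, Ndufb, Ndufc, Ndufs, Ndufv, Sdha, Sdhb, Sdhc, Sdhd, Uqcr, Cox4, Cox5, Cox6, Cox7, Cox8 or Atp5, taken from probe sets annotated to a single symbol. The rule found 90 genes on 101 probe sets, out of 14218 genes on 20832 such probe sets. They comprised 71 structural subunits, namely 34 of complex I, 4 of complex II, 7 of complex III, 11 of complex IV and 15 of the ATP synthase. The other members were 10 assembly factors, 7 tissue isoforms, the ATP synthase inhibitor Atp5if1 and the pseudogene Cox6c-ps1.

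Smooth muscle cells cultured from the aorta of Sprague-Dawley rats had 3 days in serum until confluent, 3 days without it, and then 24 h of treatment. The IL-1b array carried RNA of cells given interleukin-1b, an inflammatory cytokine, at 2.5 ng/mL; the cells of the IL-1b vehicle array received acetic acid (10 mM) with albumin (BSA, 0.1%). The PDGF-DD array carried RNA of cells given the platelet-derived growth factor PDGF-DD at 30 ng/mL; those of the PDGF-DD vehicle array received 0.01% BSA. Each group was 1 array, so no test was possible, no difference below has a replicate check, and the number of arrays limits the precision. Values are probe set intensities after each array was scaled to the same trimmed mean, and 4 intensities in a row always stand in the order vehicle of IL-1b, IL-1b, vehicle of PDGF-DD, PDGF-DD. A probe set counted as measured in a comparison if it was above a floor, intensity 28.1, on at least 1 of the arrays compared. Differences were sized by limits of 2-fold and 1.5-fold.

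In textbook terms, complex I oxidises NADH, complex II oxidises succinate as part of the TCA cycle, complex III passes electrons to cytochrome c, and complex IV reduces oxygen. Most of their subunits are encoded in the nucleus and must be matched in number to the few that mitochondrial DNA encodes, which the rule does not cover. The nuclear respiratory factor NRF1, the ETS family factor GABP, the zinc finger factor YY1 and the estrogen-related receptors are known to bind promoters of such genes.

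All 4 smooth muscle markers (Acta2, Tagln, Cnn1 and Myh11) were above the floor on every array, although their summed intensity was 23583, 7704, 18059 and 3970, lower with each factor than with its vehicle. The striated muscle markers Myh6, Myh7, Actn2 and Mb, the fat markers Ucp1, Adipoq and Plin1, and the leukocyte markers Ptprc, Cd68, Itgam and Csf1r were at the floor on all arrays. Other markers of these lists were above it. Of the 5 leukocyte markers Cd14 was above it on every array, with the list summing to between 1152 and 1365. Of the 6 striated muscle markers, Tnnt2 was at 308, 53.1, 51.1 and 35.2 and Ckm at 76.7 on the IL-1b vehicle array, under the floor on the other arrays, and the list summed to 404, 87.8, 108 and 67.4. Of the 4 fat markers, Cidea was at 85.6, 130, 152 and 259, and the list summed to 104, 140, 164 and 273. Of the endothelial markers Tek was above the floor on 2 arrays, and the list summed to at most 46.2. The part of these markers in the differences below was not tested. In such bulk RNA, fewer cells of a type and less RNA per cell cannot be told apart. The ratio of the 3' to the 5' beta-actin control probe set, a sign of RNA integrity, was 1.58, 2.05, 1.26 and 1.37. Its part in the differences below was not tested.

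Promoter windows of RefSeq (build GRCr8), from 250 bases before to 50 bases after the gene start, were matched for 82 of the 90 members. Exact matches on either strand were counted for the palindrome of NRF1 (shown in capitals in the promoter of Ndufaf4 printed here), CCGGAAG (ETS family), AAGATGGC (YY1), TCAAGGTCA (estrogen-related receptors), GGGCGG (SP family) and CACGTG (E-box, added after values were seen). None of these motifs contains another. AAGATGGC stood in 17 of the 82 member promoters (20.7%), in 4.72% of 11701 promoters of genes on the array and in 3.44% of all 27457 windows. CCGGAAG stood in 25 (30.5%), against 15.1% and 9.22%, and the NRF1 palindrome in 5 (6.10%), against 1.62% and 0.93%. TCAAGGTCA stood in 2 member promoters (2.44%, against 0.21% and 0.41%). GGGCGG was less frequent among members than among genes on the array (46.3% against 57.5%, and 34.9% of all windows), and CACGTG stood in 6 (7.32%, against 8.94% and 6.65%).

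The AAGATGGC matches lay close to the gene start. In 15 of the 17 member promoters the match began within 50 bases of the start, compared with 380 of 552 promoters with the motif among genes on the array (68.8%). The following stretches of 28 bases around the match show 1 subunit of each complex, 5' to 3' along the gene, with the motif or its reverse complement in capitals.
Ndufs7 (complex I, chr7:10110477-10110504, minus strand): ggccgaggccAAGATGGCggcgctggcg
Sdhc (complex II, chr13:86098005-86098032, minus strand): gccggaactcAAGATGGCtgcgctcttg
Uqcrc1 (complex III, chr8:118468212-118468239, plus strand): cggaagttagAAGATGGCggcgtccgca
Cox8a (complex IV, chr1:213833610-213833637, minus strand): ggctattgcgGCCATCTTgacttcctga
Atp5po (ATP synthase, chr11:44657465-44657492, minus strand): tgcccgggaaAAGATGGCcgcaccagca
The match began 5, 4 and 2 bases into the transcribed side in Ndufs7, Sdhc and Atp5po, and 1 and 4 bases before the start in Uqcrc1 and Cox8a. A match of letters is a description and not a binding site.

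The 250 bases before the start are shown for Sdhaf1 and Ndufaf4, the assembly factor genes furthest from their vehicle with IL-1b and with PDGF-DD. Capitals mark whole matches to the motifs above.
Sdhaf1 (chr1:94704612-94704861, minus strand): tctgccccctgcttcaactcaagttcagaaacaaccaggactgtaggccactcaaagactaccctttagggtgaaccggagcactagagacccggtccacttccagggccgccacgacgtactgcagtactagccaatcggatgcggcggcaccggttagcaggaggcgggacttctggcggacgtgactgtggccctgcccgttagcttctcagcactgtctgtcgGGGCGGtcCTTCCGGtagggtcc
Ndufaf4 (chr5:43401545-43401794, plus strand): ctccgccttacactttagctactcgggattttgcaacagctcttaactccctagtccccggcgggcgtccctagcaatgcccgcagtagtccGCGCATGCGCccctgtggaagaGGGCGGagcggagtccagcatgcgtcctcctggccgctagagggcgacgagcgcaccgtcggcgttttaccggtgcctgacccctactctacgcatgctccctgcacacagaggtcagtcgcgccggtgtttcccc
In Sdhaf1 the capitals are an SP motif 23 bases and a reversed ETS motif 15 bases before the start. In Ndufaf4 they are an NRF1 motif 158 bases and an SP motif 136 bases before the start, and an E-box began at the last base before the start, so that it is not shown whole. Between member genes with and without the AAGATGGC motif the median log2 ratios were 0.04 (16 genes) and 0.09 (61 genes) with IL-1b, and 0.06 and 0.05 with PDGF-DD. The NRF1 motif gave -0.07 (5 genes) and 0.09 (72 genes), and 0.07 and 0.04. ETS gave 0.06 (25 genes) and 0.09 (52 genes), and -0.02 and 0.05. SP gave 0.06 (35 genes) and 0.09 (42 genes), and 0.00 and 0.06. The E-box gave 0.03 (6 genes) and 0.09 (71 genes), and -0.00 and 0.05. TCAAGGTCA gave 0.15 (2 genes) and 0.08 (75 genes), and 0.185 and 0.04. These splits were not tested.

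Of the 90 genes, 84 passed the floor on 1 or more arrays and 82 on all 4. The 6 that were at the floor on every array were Cox4i2, Cox6a2, Cox6b2, Cox7b2, Cox8b and Ndufa4l2. All of them are isoforms: Cox6a2 and Cox8b are known from heart and skeletal muscle, Cox6b2 and Cox7b2 from testis, Cox4i2 from lung and Ndufa4l2 from hypoxic cells. Their intensities ran from 0.86 for Cox7b2 with IL-1b to 21.7 for Ndufa4l2 with PDGF-DD. The muscle isoform Cox7a1 was the only tissue isoform to pass the floor on any array, at 35.4, 10.6, 55.5 and 29.6, under it with IL-1b. The partners of these isoforms, Cox4i1, Cox6a1, Cox6b1, Cox8a and Ndufa4, were between 2639 (Cox8a with PDGF-DD) and 6756 (Cox4i1 on the IL-1b vehicle array). Of the 71 structural subunits, 69 had a mean intensity above the 75th percentile of all probe sets (262), a level that 39.1% of all genes reached.

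The structural subunits varied little over the 4 arrays. The ratio of the highest to the lowest array had a median of 1.27 over the 71 subunits and of 1.29 over the 84 measured members. It was 1.62 over all 10885 genes that passed the floor on any array, and 1.56 over the 5558 bright genes (mean intensity above the 75th percentile). The bright genes were not matched to the subunits in intensity, and the part of intensity in this difference was not tested. A ratio of at least 1.5 was seen in 16 of 84 members and 8 of 71 subunits, against 59.8% of all genes. Among bright genes alone it was seen in 11 of 75 members, against 55.8%. A ratio of at least 2 was seen in 2 members, Sdhaf1 (2.09) and Cox6c-ps1 (at least 2.99), against 29.9% of all genes and 26.3% of bright genes. Among subunits the widest was Ndufa1, an accessory subunit in the membrane arm of complex I, at 1.90. These ratios rest on 1 probe set per gene, the brightest. Dimmer second probe sets of the subunits Uqcrc2 and Ndufv3, above the floor on all 4 arrays, had ratios of 2.45 and 2.28. That of the assembly factor Sdhaf2, under the floor on some arrays, had at least 2.18.

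**Figure D1:**
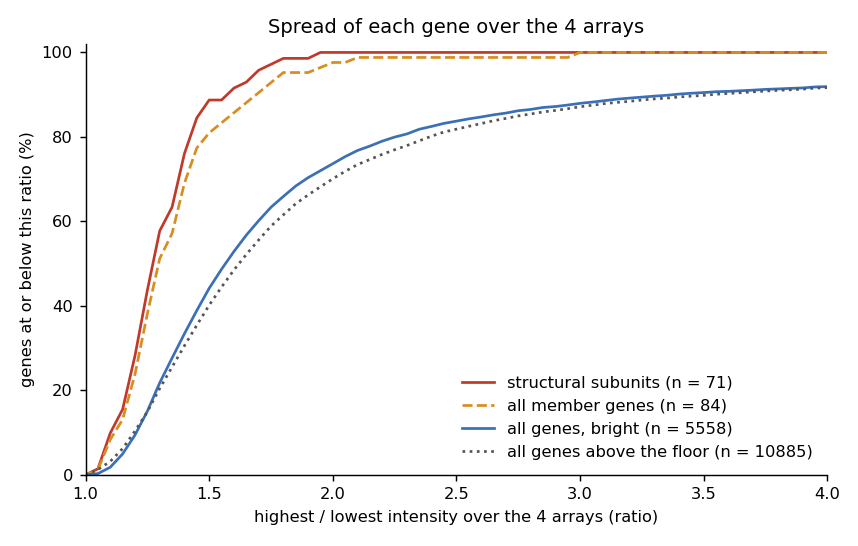
Cumulative percentage of genes (vertical axis) whose highest intensity over the 4 arrays divided by the lowest is at or below the ratio on the horizontal axis. The red line (71 structural subunits) and the orange dashed line (84 member genes) lie left of the lines for 5558 bright genes and for all 10885 genes above the floor.

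Ndufa4, first described in complex I and now placed in complex IV, had the narrowest spread of the 5558 bright genes. Its intensities were 3764, 3815, 3858 and 3766, a ratio of 1.02. The ATP synthase subunits Atp5po, which joins the catalytic head to the stalk, and Atp5pb, part of the stalk, ranked 23 and 24 (ratios 1.06 and 1.06), and Uqcrq of complex III ranked 36 (1.07). The catalytic beta subunit of the ATP synthase, Atp5f1b, was at 3838, 4275, 4048 and 4061 and ranked 139. These genes held nearly the same level on all 4 arrays.

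With IL-1b, 1 of 84 measured member genes was at least 2-fold higher than with its vehicle and 0 were at least 2-fold lower, where 6.15% and 5.42% of 10679 genes were. The same single gene passed the 1.5-fold limit, and 0 were lower by that much, against 13.2% and 11.8% of all genes. The median log2 ratio was 0.09 over the members, and 0.02 over all genes. By any amount, 58 members were higher and 26 lower, and 52.5% of all genes were higher. Within 1.25-fold of the vehicle were 68 of 84 members, and 53.4% of all genes.

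That gene was Sdhaf1, an assembly factor that helps to insert iron-sulfur clusters into the complex II subunit Sdhb. Its intensities were 697, 1460, 1070 and 767. The IL-1b array was the highest of the 4, and the vehicle arrays stood 1.53-fold apart. The log2 ratio of the IL-1b array was 1.07 (2.09-fold) to its own vehicle and 0.45, less than 1.5-fold, to that of PDGF-DD. The subunit Sdhb itself was at 1589, 1740, 1684 and 1926, a log2 ratio of 0.13 with IL-1b. A dim second probe set of Sdhaf2, the factor that attaches flavin to Sdha, had a log2 ratio of at least 1.12 with IL-1b (61.1 against 24.0, under the floor). The brighter one gave 0.17.

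Complex I subunits had a median log2 ratio of 0.09 with IL-1b, with 26 of 34 above 0, where 52.5% of all genes were (median 0.02). Against the vehicle of PDGF-DD 25 of 34 were above 0, where 57.6% of all genes were. Ndufs4, an accessory subunit needed for a stable complex, was the highest at 0.48, with intensities of 313, 436, 309 and 333. It was higher with IL-1b than on each of the other 3 arrays. Ndufv2, an iron-sulfur subunit of the NADH-oxidising module, was the lowest at -0.46, with 2718, 1970, 2290 and 2018, and the accessory subunits Ndufa5 and Ndufa2 followed at -0.41 and -0.40. The neighbours of Ndufv2 in the electron path, Ndufv1 and Ndufs1, had log2 ratios of 0.09 and 0.06. Core subunits as a whole did not stand apart from accessory ones, with medians of 0.09 (6 genes) and 0.09 (28 genes).

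Among the 4 subunits of complex II, the membrane anchors went apart. Sdhc was at 1920, 1468, 1979 and 2040, lowest with IL-1b at a log2 ratio of -0.39, and Sdhd was at 1192, 1440, 1333 and 1667, a log2 ratio of 0.27. Complex III had a median of 0.18 over 7 genes, led by the Rieske iron-sulfur protein Uqcrfs1 at 0.30 (2674 and 3293). Set against the vehicle of PDGF-DD (3701), Uqcrfs1 had a log2 ratio of -0.17. Complex IV had a median of 0.12, with 9 of 11 above 0, where 52.5% of all genes were. Its range was from -0.34 for Cox7a2l, a supercomplex assembly subunit, to 0.38 for Cox5a. The ATP synthase had a median of 0.03 over 15 genes, between -0.29 for Atp5me and 0.26 for Atp5f1d. Its inhibitor Atp5if1, which blocks ATP hydrolysis when respiration fails, was at 1059, 1472, 1640 and 1741, a log2 ratio of 0.47. The IL-1b vehicle array was the low one for Atp5if1, and a dim second probe set gave -0.09.

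**Figure D2:**
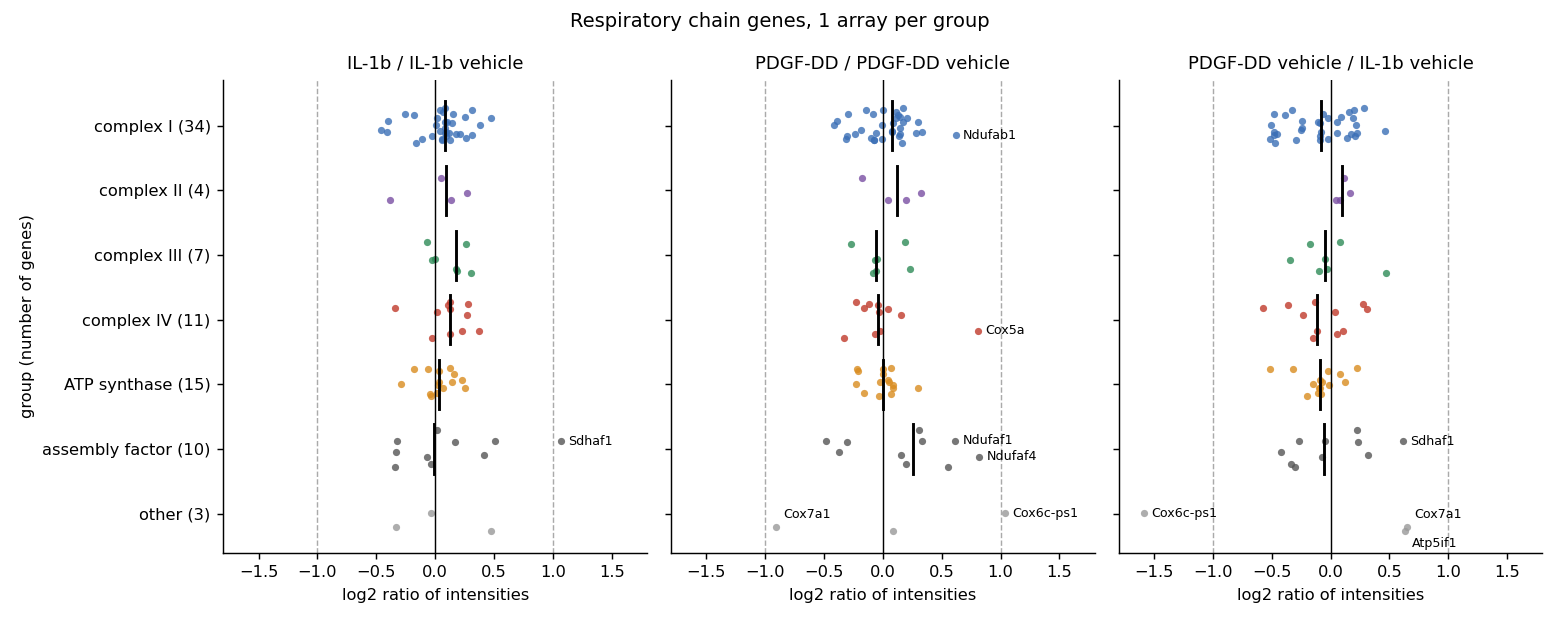
Log2 ratio of intensities (horizontal axis) for each measured member gene, grouped by complex (vertical axis, number of genes in parentheses), for IL-1b, PDGF-DD and the vehicle arrays. Each point is 1 gene, black bars are group medians, dashed lines mark 2-fold, and "other" holds Atp5if1, Cox7a1 and Cox6c-ps1. Sdhaf1 with IL-1b (1.07) and Cox6c-ps1 with PDGF-DD (1.03) and between vehicles (-1.58) lie beyond the dashed lines.

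With PDGF-DD, 1 of 84 measured members was at least 2-fold higher than with its vehicle and 0 were at least 2-fold lower, where 4.24% and 4.67% of 10142 genes were. At 1.5-fold, 5 were higher and 1 lower, against 12.6% and 12.4%. The median log2 ratio was 0.02 over the members and 0.01 over all genes. By any amount, 44 members were higher and 40 lower, beside 51.0% of all genes higher, and 69 were within 1.25-fold, beside 50.8%. This split depended on the scaling, at 61 higher and 23 lower in the values as deposited and 54 and 30 after quantile normalization, where the share of all genes higher was 58.4% and 52.9%.

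The gene past 2-fold was the pseudogene Cox6c-ps1, at 84.0, 81.9, 17.3 and 57.5. It was under the floor on the PDGF-DD vehicle array, so its 2.05-fold is a lower bound, and PDGF-DD was below the other vehicle array (log2 ratio -0.55). A probe set of a pseudogene can share sequence with its parent gene. The parent, Cox6c, was at 4526, 5481, 5480 and 5043, with a log2 ratio of -0.12. The gene past 1.5-fold downward was Cox7a1, near the floor, at a log2 ratio of -0.91.

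Assembly factors were higher with PDGF-DD in 7 of 10, with a median log2 ratio of 0.25, beside -0.00 over the 71 structural subunits. Of all genes 51.0% were higher, with a median of 0.01. Outside the rule, 22 of 33 assembly and cytochrome c genes, 16 of 18 biogenesis regulators and 8 of 17 mitochondrial dynamics genes were higher. Ndufaf4, an assembly factor of the early complex I intermediates, was at 573, 546, 547 and 964. The PDGF-DD array alone was high, and the log2 ratio was 0.82 to its own vehicle and 0.75 to the other. Ndufaf1, which helps to build the membrane arm, was dim at 57.2, 81.3, 55.5 and 85.0, with a log2 ratio of 0.62 with PDGF-DD and 0.51 with IL-1b, so that both treated arrays were above both vehicle arrays. Ndufaf8 was at 269, 212, 217 and 319 (0.55). Its partner Ndufaf5, an enzyme that modifies Ndufs7, was at 190, 152, 158 and 198 (0.33). For both, the PDGF-DD array was the highest of the 4, while the IL-1b array was below the IL-1b vehicle. Of the assembly factors of complex II, Sdhaf1, Sdhaf2 and Sdhaf4 had log2 ratios of -0.48, -0.31 and -0.37, and Sdhaf3 was at 0.20. The factors of complex I were all above 0 with PDGF-DD, and 3 of the 4 factors of complex II were below.

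Of the structural subunits, Cox5a and Ndufab1 passed 1.5-fold with PDGF-DD and 0 were lower by that much. Ndufab1, the acyl carrier protein of mitochondria and a complex I subunit, was at 1321, 1643, 947 and 1454. Its log2 ratio of 0.62 against its own vehicle was 0.14 against the other vehicle; the PDGF-DD vehicle array was the low one. Cox5a, a complex IV subunit, was at 164, 213, 152 and 266 by its single-symbol probe set, a log2 ratio of 0.81 (0.70 to the other vehicle). A much brighter probe set annotated to both Cox5a and LOC100361008 was at 4063, 3722, 3178 and 3675, with log2 ratios of 0.21 with PDGF-DD and -0.13 with IL-1b. These probe sets therefore disagreed on Cox5a in size with PDGF-DD and in sign with IL-1b.

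Among core complex I subunits, 5 of 6 were higher with PDGF-DD, where 51.0% of all genes were. These 5 were Ndufv1, which binds NADH, at a log2 ratio of 0.30, Ndufs3 at 0.28, Ndufs7 at 0.14, Ndufs8 at 0.14 and Ndufs1 at 0.11. Ndufv2 was lower at -0.18. With IL-1b 5 of 6 core subunits were higher as well, where 52.5% of all genes were. Against the other vehicle array 4 of 6 were higher with PDGF-DD, where 47.2% of all genes were. How this split depends on the scaling was not counted. Of the 28 accessory subunits 13 were higher with PDGF-DD than with its own vehicle (median -0.00), with Ndufa1 the lowest at -0.41 (3823, 3836, 2688 and 2018). In complex IV 3 of 11 were higher (median -0.04), and Cox4i1, a regulatory subunit, was at 6756, 6641, 6095 and 4835, a log2 ratio of -0.33. In complex III 2 of 7 were higher (median -0.06), namely the core proteins Uqcrc1 (0.23) and Uqcrc2 (0.19). A second, dimmer probe set of Uqcrc2 gave 0.91 (1279 and 2406). In complex II 3 of 4 were higher, with Sdhb at 0.19 and the flavoprotein Sdha at -0.18. The second probe set of Sdhd gave 0.50 beside 0.32, and that of the accessory subunit Ndufv3 gave -0.85 beside -0.08. The ATP synthase had a median of 0.01, with the catalytic subunits Atp5f1a and Atp5f1b at 0.07 and 0.00.

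**Figure D3:**
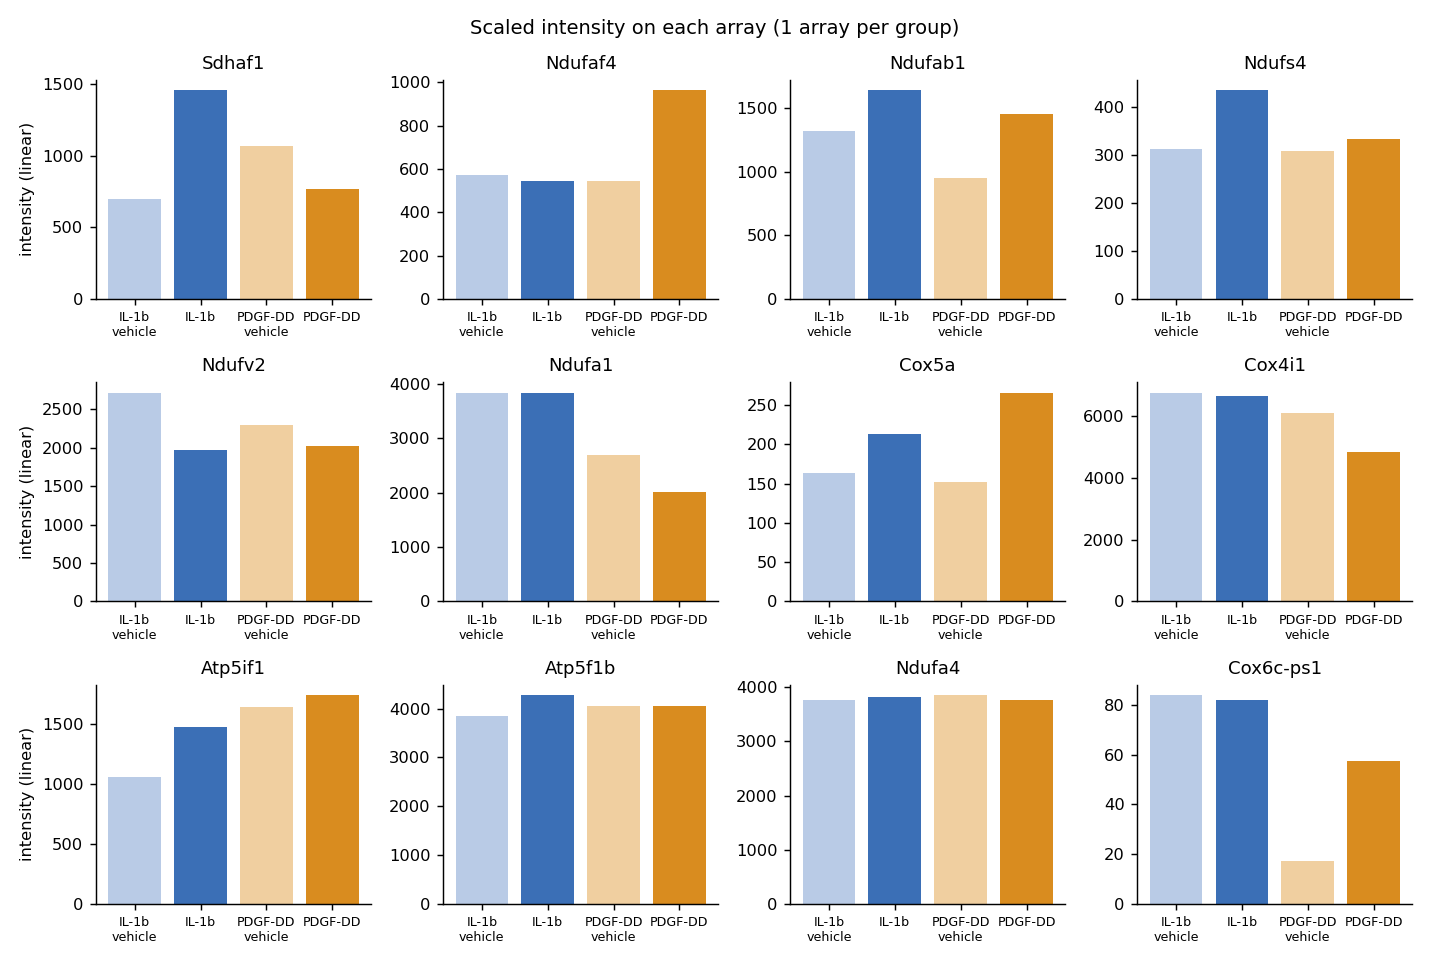
Scaled linear intensity (vertical axis, from 0, a scale of its own per panel) on the 4 arrays for 12 member genes; each bar is 1 array. Sdhaf1 is highest with IL-1b (1460), Ndufaf4 with PDGF-DD (964), Ndufa1 is lower on both arrays of the PDGF-DD pair (2688 and 2018) and Ndufa4 is level.

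The vehicle arrays, neither with a factor, were compared the same way. They are not replicates, because that of IL-1b had acetic acid with 0.1% BSA and that of PDGF-DD had 0.01% BSA. Their differences thus cannot be taken as measurement noise alone. Of 84 members 0 were at least 2-fold higher and 1 at least 2-fold lower with the vehicle of PDGF-DD than with that of IL-1b, against 5.79% and 4.67% of 10389 genes. The 1 was Cox6c-ps1, at least 2.99-fold lower. At 1.5-fold 3 were higher (Cox7a1, Atp5if1 and Sdhaf1) and 1 lower, against 12.5% and 13.8%. The median log2 ratio was -0.07 for members and -0.05 for all genes, and 33 members were higher, beside 45.7% of all genes. Within 1.25-fold were 63 members, and 49.8% of all genes. Among subunits the lowest log2 ratios between vehicles were those of Cox7a2l (-0.57, intensities 3379 and 2273), Ndufb11 (-0.51), Atp5f1e (-0.51) and Ndufa1 (-0.51), and the highest was that of Uqcrfs1 (0.47). By the brightest probe set of each of the 71 subunits, only Cox5a and Ndufab1 with PDGF-DD were further from their vehicle than Cox7a2l was between vehicles. Dimmer second probe sets of Uqcrc2 (0.91 with PDGF-DD) and Ndufv3 (-0.85 with PDGF-DD, -0.59 with IL-1b) were further too. The brighter probe set annotated to both Cox5a and LOC100361008 was not, at 0.21 with PDGF-DD.

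Several subunits separated the arrays by pair rather than by treatment. For 29 of 71 subunits both arrays of the PDGF-DD pair were below both of the IL-1b pair, and for 10 both were above; over all genes the shares were 25.3% and 19.1%. Those below by more than 1.25-fold were Ndufb11 (2238, 2336, 1567 and 1560), Ndufa1, Cox8a (3501, 3785, 2721 and 2639), the epsilon subunit Atp5f1e (3514, 3106, 2465 and 2114) and Ndufa3. Those above included the alpha subunit Atp5f1a (2624, 2856, 3064 and 3215), Cox7b (3398, 3703, 4220 and 4362) and Ndufa8 (1058, 1090, 1460 and 1540). The 3'/5' beta-actin ratio was also lower in the PDGF-DD pair (1.26 and 1.37) than in the IL-1b pair (1.58 and 2.05), and its part was not tested.

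The treatments share no array when each is set against its own vehicle, so their log2 ratios can be compared across genes. Over the 71 subunits 27 were higher with both factors, 11 lower with both, 25 higher with IL-1b and lower with PDGF-DD, and 8 the reverse. Over 9936 genes these counts were, in the same order, 3017, 2722, 2164 and 2033. Across the 71 subunits, which are not independent replicates and share arrays, Pearson's r was 0.35 and Spearman's rho 0.26. Over all 84 measured members they were 0.13 and 0.15, and over 9936 genes 0.18 and 0.20. The members as a whole were thus below the value of all genes, and the subunits alone above it.

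Related mitochondrial genes were taken from lists of other functions. Of 34 assembly and cytochrome c genes outside the rule, 0 were 2-fold apart with IL-1b and, of 33, 0 with PDGF-DD (medians 0.01 and 0.14). Among all genes, 6.15% passed 2-fold upward and 5.42% downward with IL-1b, and 4.24% and 4.67% did so with PDGF-DD. Uqcc2, an assembly factor of complex III, was at 946, 1470, 1266 and 1873, higher with both factors than with either vehicle (log2 ratios 0.64 and 0.57). Of 18 regulators of mitochondrial biogenesis, 16 were above 0 with PDGF-DD (median 0.35), where 51.0% of all genes were. Of these 18 regulators 0 passed 2-fold, where 4.24% of all genes did upward and 4.67% downward. How the splits of these lists depend on the scaling was not counted. Of 19 regulators, 1 passed 2-fold upward with IL-1b and 0 downward, where 6.15% and 5.42% of all genes did. By any amount 13 were above 0 with IL-1b and 6 below (median 0.09), where 52.5% of all genes were above. The lowest was Nrf1, the gene of NRF1, at a log2 ratio of -0.51, and its other probe sets gave between -0.93 and -0.17. The gene past 2-fold was Esrra, estrogen-related receptor alpha, at 84.3, 244, 101 and 186. Both treated arrays were above both vehicle arrays for Esrra, with log2 ratios of 1.53 and 0.87. Myc, a growth regulator that also acts on mitochondrial genes, was at 566, 453, 426 and 784, a log2 ratio of 0.88 with PDGF-DD.

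In the TCA cycle list 1 of 15 genes was at least 2-fold lower with IL-1b and 0 higher, where 5.42% and 6.15% of all genes were. With PDGF-DD 0 were 2-fold apart, where 4.24% of all genes were higher and 4.67% lower. Idh2, the NADP-dependent mitochondrial isocitrate dehydrogenase, was at 1849, 796, 1488 and 2016, lowest with IL-1b (log2 ratio -1.22, and -0.90 against the PDGF-DD vehicle). Nnt, which makes mitochondrial NADPH from the proton gradient, was at 1589, 804, 1226 and 1018, also lowest with IL-1b (-0.98, and -0.61 against the PDGF-DD vehicle). Both enzymes supply NADPH to mitochondria. Of the carriers and import genes, Slc25a10, the dicarboxylate carrier, was at 86.7, 192, 160 and 156 (log2 ratio 1.15 with IL-1b, 0.27 against the PDGF-DD vehicle). With PDGF-DD 17 of 21 carriers and import genes were above 0 (median 0.16), where 51.0% of all genes were. The highest were the aspartate-glutamate carrier Slc25a13 (0.96) and the import channel Tomm40 (0.91).

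The superoxide dismutase of the matrix, Sod2, was at 1236, 8139, 7543 and 3643 and the peroxiredoxin Prdx5 at 1943, 5705, 4998 and 5672. For both the IL-1b vehicle array was the low one and the PDGF-DD vehicle array was near the IL-1b array, with log2 ratios of IL-1b to that array of 0.11 and 0.19. The first probe set of the fusion gene Opa1 behaved likewise (98.6, 251, 255 and 263), and its second gave -0.16 with IL-1b. In glycolysis, which makes ATP without the respiratory chain, 2 of 19 genes passed 2-fold upward with IL-1b and 0 downward, where 6.15% and 5.42% of all genes did, and 2 upward and 1 downward with PDGF-DD, where 4.24% and 4.67% did. Those with IL-1b were the lactate transporters Slc16a1 and Slc16a3. Slc16a3 was at 16.8, under the floor, 84.0, 189 and 106, a log2 ratio of at least 1.58 with IL-1b that turned to -1.17 against the vehicle of PDGF-DD. Hexokinase Hk2 was at 27.8, just under the floor, 32.9, 46.4 and 218, and thus 4.70-fold higher with PDGF-DD than its vehicle. Lactate dehydrogenase B, Ldhb, was at 1098, 1514, 1131 and 381. Slc16a1 was at 312, 1720, 790 and 975, highest with IL-1b, with log2 ratios of 2.46 to its own vehicle and 1.12 to the other. Those past 2-fold upward with PDGF-DD were Hk2 and the phosphofructokinase Pfkp (log2 ratio 1.04). The glycolysis list had a wider range of log2 ratios (-1.57 to 2.23 with PDGF-DD) than the subunits of the respiratory chain (-0.41 to 0.81), although it held fewer genes; this difference in range was not tested.

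**Figure D4:**
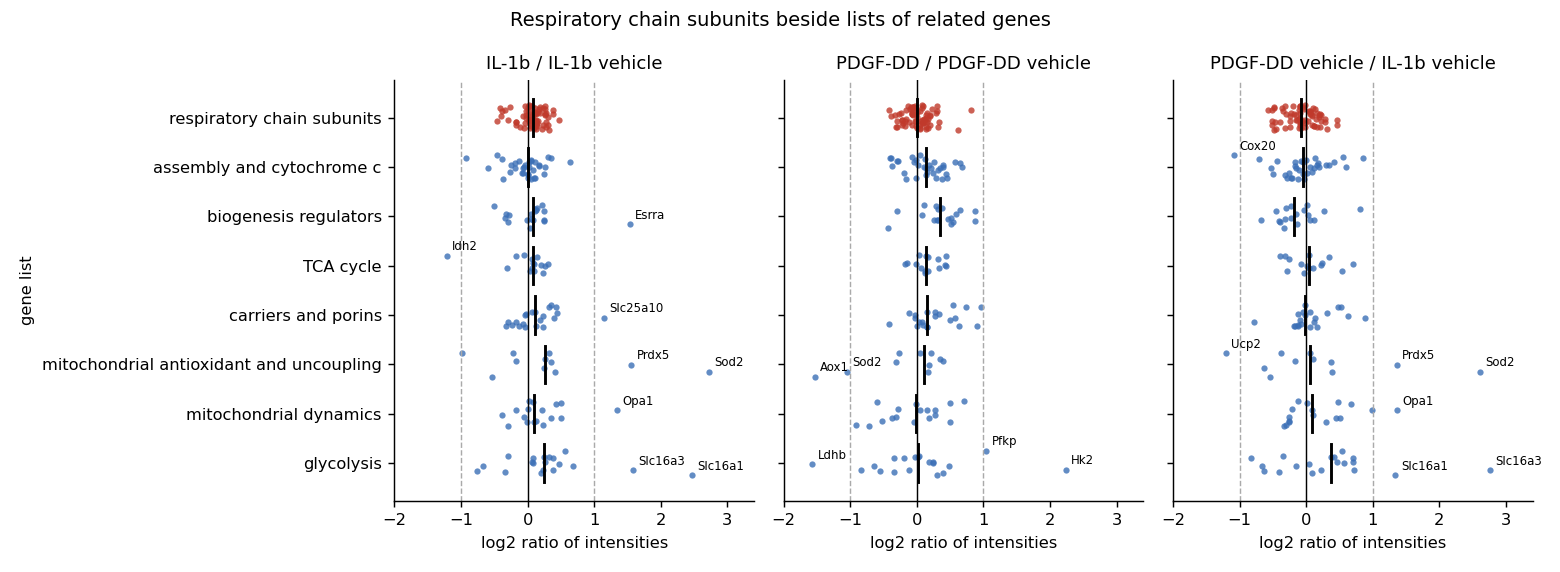
Log2 ratio of intensities (horizontal axis) for the structural subunits (red) and for genes of 7 related lists (blue), in the 3 comparisons. Each point is 1 gene, black bars are medians, dashed lines mark 2-fold and genes beyond them are named. The subunits lie within the dashed lines in every panel, and Sod2, Esrra, Idh2, Hk2 and Ldhb lie outside in at least 1.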

How the data were processed

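Total RNA of 4 cell samples was measured on Affymetrix rat arrays with 31099 probe sets. The authors deposited 1 linear intensity per probe set, and the submitters' processing notes name MAS5; the version and settings: not given in the sources used here. Every deposited column had a median intensity of 53.3. Each array was scaled to the same mean after trimming 2% at each end (factors between 0.951 for PDGF-DD and 1.03 for the vehicle of IL-1b), and values under the 40th percentile of all values (28.1) were set to it. With a dim value on 1 array a fold is a lower bound. Log2 ratios of 2 arrays were computed in Python 3.11.15 with pandas 2.3.3; the steps were tested on simulated data.

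Gene symbols were those of GEO's annotation of the platform, which can be old: 1 symbol for 20832 probe sets, several for 436 and none for 9831. Through gene identifiers, 20764 of the first were found in RefSeq (GRCr8). Where a gene had several probe sets, as 10 members did, the brightest by mean log2 intensity was used. Groups came from the sample titles. The members and lists were chosen with earlier results of these data known. Genes named were, per comparison, the 6 highest and 6 lowest members, members 2-fold apart, tissue isoforms and their partners, core subunits, and up to 3 genes per list; Cox7b2, Ndufaf5, Sdhaf2, Sdhaf3, Sdhd, Uqcrc2, Uqcrq, Cox6c, Cox7b, Atp5me, Atp5f1d, Atp5pb, Atp5po and Ndufa3 were named after their values were seen. The planned comparison of isoform proteins was not run because no protein table was used here. Alternatives covered scaling, floor, filter, probe set choice, limit, members and vehicle.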

Additional observations from a re-analysis of the deposited data

Results flagged for a closer look

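The members at least 1.25-fold from their own vehicle in opposite directions with the 2 factors were the assembly factors Sdhaf1, Ndufaf8 and Ndufaf5. The share of all genes that meet this rule was not counted, so it is not read as a trait of assembly factors. Sdhaf1 had a log2 ratio of 1.07 with IL-1b and -0.48 with PDGF-DD, a difference of 1.55. Ndufaf8 had -0.34 with IL-1b and 0.55 with PDGF-DD, a difference of -0.90, and Ndufaf5 -0.33 and 0.33, a difference of -0.66. With 1 array per group these differences were not tested, and the vehicle arrays differed by 0.62, -0.30 and -0.27 for the same genes. Against the other vehicle array, the log2 ratios of these genes were 0.45, -0.04 and -0.06 with IL-1b. With PDGF-DD they were 0.14, 0.25 and 0.06.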

How the results depend on the processing

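The median log2 ratio of the members stayed above 0 with IL-1b under every alternative (0.07 to 0.11) and below 0 between vehicles (-0.08 to -0.05). With PDGF-DD it was 0.02 in the reported setting, 0.11 in the values as deposited, where all genes also had a median of 0.09, and turned to -0.0058 in genes with a mean intensity above the 75th percentile, to -0.0013 in structural subunits only and to -0.0086 against the other vehicle array. Of 1 member 2-fold apart in each comparison, the count with IL-1b became 2 with the floor at the 25th percentile or with every probe set counted, 5 without floor or filter, and 0 among structural subunits. With PDGF-DD it became 0 with the floor at the 60th percentile, with log2(intensity + 32), in genes above the 75th percentile, among structural subunits, against the other vehicle and without Cox6c-ps1 (an alternative added after seeing the data). It became 2 without floor or filter, and 6 at the 1.5-fold limit. Between vehicles it became 0 with the floor at the 60th percentile, above the 75th percentile, among structural subunits and without Cox6c-ps1, 6 without floor or filter and 4 at the 1.5-fold limit. Against the other vehicle array some log2 ratios past 2-fold changed sign: Opa1 (-0.0212) and Slc16a3 (-1.17) with IL-1b, and Cox6c-ps1 (-0.55) and Sod2 (1.56) with PDGF-DD. With IL-1b the count of members 2-fold apart stayed at 1 against that array, but the gene was another. It was Cox6c-ps1 (at least 1.54), and Sdhaf1 was at 0.45. The cause of these shifts was not tested, except that fewer or dimmer genes enter where the floor, filter or member set differs. Signal over background limits the dim probe sets, Cox6c-ps1 and Cox7a1 among the members. No paired analysis was possible because each group is 1 array and the labels give no replicate numbers.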

Other observations

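Members of the respiratory chain also lie on 7 probe sets annotated to 2 symbols, which the counts leave out; that of Cox5a is described above. The probe set of Atp5mc2 and Atp5mc2l1 was at 3868, 2746, 2530 and 2513, with the IL-1b vehicle array, given first, the high one. That of Ndufa10 and Ndufa10l1 was at 949, 809, 762 and 1026, that of Atp5mc1 and Atp5mc1l1 at 2366, 2612, 2282 and 2656, and that of Uqcrb and Uqcrbl1 at 4060, 3464, 3360 and 3393. Cox7a2 with Cox7a2l2 was at 3683, 4335, 3625 and 3559, and Ndufs5 with Ndufs5-ps2 at 2163, 2313, 2205 and 2002. All 6 were within 2-fold of their vehicle with each factor.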
